A study of Homo sapiens with 8 samples.

Results

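Histone genes were described in MDA-MB-231 cells, an established human breast cancer line that lacks the estrogen receptor. They were taken by symbol from the deposited table, as every gene with a replication-dependent histone name of the H1, H2A, H2B, H3 or H4 class, and 33 of the 17649 genes matched. The controls were 4 cultures that received PBS, and the treated group was 4 cultures exposed for 48 hours to 1 µM carboxymethyllysine (CML), an advanced glycation end product that forms when sugars react with lysine. Both groups were grown in 5 mM glucose, and both are cultures of this single cell line. The values are CPM (read counts divided by the size of the library and scaled between libraries by the authors), and each library held between 16161806 and 18954731 estimated reads, so that 1 read was worth 0.0535 to 0.0622 CPM. No source says that the replicates came from separately started cultures, so p-values measure the spread between these libraries.

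Histones are the proteins around which DNA is wound. The core of the nucleosome holds H2A, H2B, H3 and H4, and H1 binds the DNA between nucleosomes. Most histone genes lie in clusters of near-identical copies and are transcribed mainly in S phase, when new DNA has to be packaged. Their mRNAs are unusual in that they normally end just after a short stem-loop and carry no poly(A) tail, although some of these genes can also give a longer, polyadenylated mRNA. Replacement variants such as H2A.Z or H3.3 are encoded by ordinary genes elsewhere in the genome, whose mRNAs are polyadenylated and made throughout the cell cycle.

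VIM, CD44 and AXL, listed as markers of this line, had mean levels of 4109, 850 and 1206 CPM. All but ESR1 of 7 listed receptor and luminal epithelial genes were in the table. PGR was at 0.021 CPM and CDH1 at 0.65 CPM. GATA3 was at 4.62, EPCAM at 14.5, ERBB2 at 49.7 and KRT8, an epithelial keratin, at 221 CPM. Of the marker lists of other cell types, 5 of 5 fibroblast, 2 of 4 leukocyte and 2 of 3 endothelial genes were in the table, and none passed the threshold or reached an unadjusted p under 0.05 in limma. The summed fibroblast markers were at 11.7 ± 0.561 CPM in the controls and 13.6 ± 1.92 CPM with CML (SD, n = 4 each), with overlapping libraries and most of the sum from COL1A1, while DCN was at 0.015 CPM. The summed leukocyte markers ran from 0.741 to 1.60 CPM and from 0.637 to 1.56 CPM, and the endothelial markers from 3.53 to 3.96 CPM and from 3.11 to 3.78 CPM, in the same order of groups.

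Few histone genes reached a level at which the libraries could be compared. Of the 33 genes, 8 were listed at 0 in all 8 libraries, 13 were above 0 with a mean under 1 CPM, and 12 averaged 1 CPM or more. The 8 genes at 0 were HIST1H2AE, HIST1H2BF, HIST1H2BH, HIST1H3E, HIST1H3G, HIST1H4E, HIST3H2A and HIST3H2BB, which are named here after their values were seen. At the depth of these libraries 3 reads, the limit that a count of 0 allows, correspond to 0.161 to 0.187 CPM, a limit that covers counting error only. HIST1H1C was the 1 H1 gene among the 33 (H1F0 and H1FX were counted with the replacement variants). The 7 H2A genes included 2 that averaged 1 CPM or more, the 15 H2B genes 6 and the 7 H4 genes 3, while none of the 3 H3 genes reached that level. HIST1H3H was the only H3 gene above 0, at 0.403 CPM, or about 7 reads a library.

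**Figure D1:**
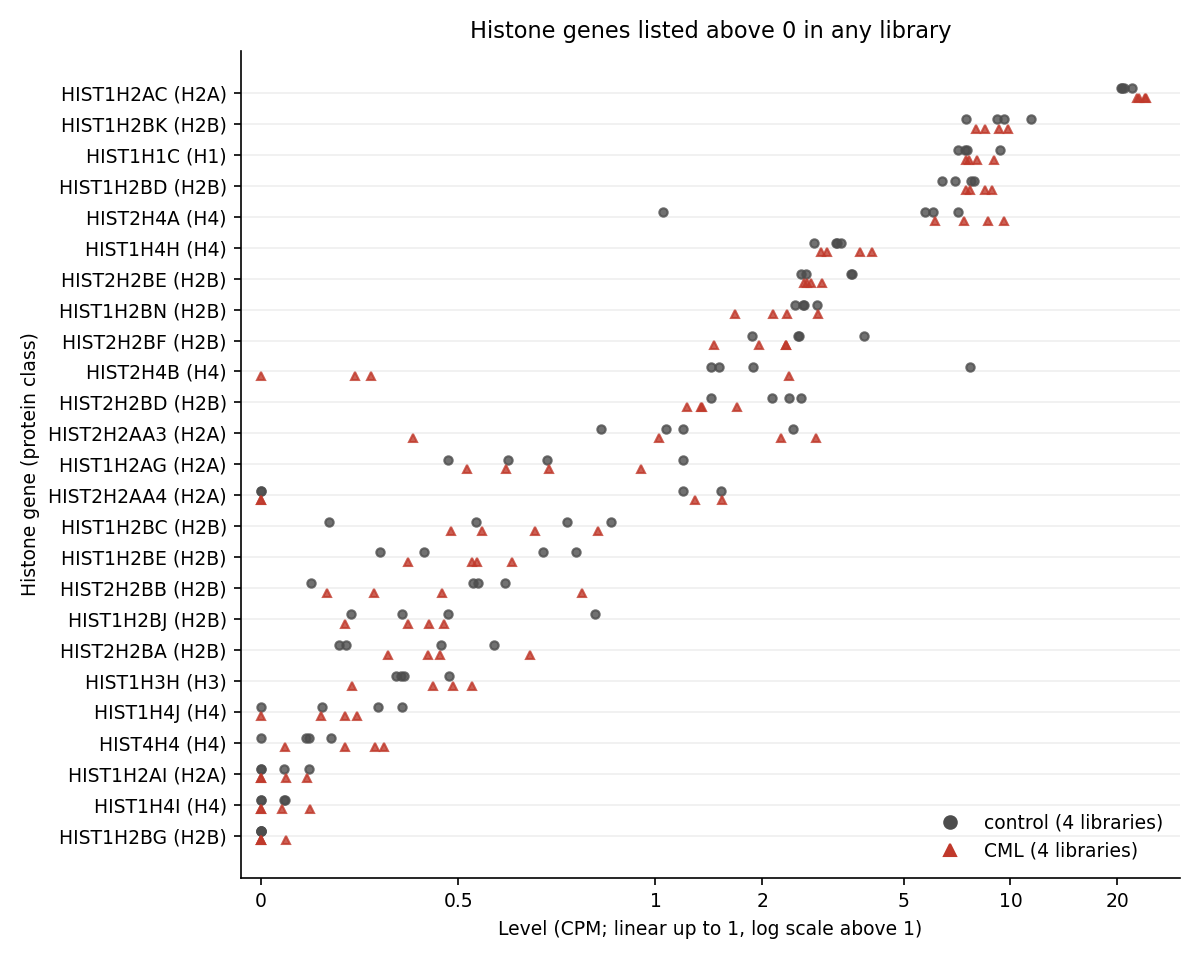
Levels in CPM (x axis, linear up to 1 and logarithmic above) of the 25 histone genes above 0 in any library, ordered by mean; circles are the 4 control libraries and triangles the 4 CML libraries. HIST1H2AC has the highest CPM, HIST1H3H is the only H3 gene, and the groups overlap for every gene below 1 CPM.

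The genes with measurable levels came from 2 places in the genome. Counted by name, the HIST1 cluster on chromosome 6 gave 21 of the 33 genes, of which 6 averaged 1 CPM or more. HIST2 names, on chromosome 1, gave 9, again with 6 at that level. Of these, HIST2H2BA and HIST2H2BB start at bases 121107175 and 143846902, outside the cluster. The other HIST2 genes start between bases 149782689 and 149884459. The 2 HIST3 genes, also on chromosome 1, were listed at 0, and HIST4H4 on chromosome 12 was at 0.161 CPM. Neighbours could differ widely in level. HIST1H2AC and HIST1H2BC start back to back, with 245 bases between their starts, and their mean levels were 13.3 and 0.215 CPM per kilobase of annotated exons. The same arrangement was found for HIST1H2BJ and HIST1H2AG, 247 bases apart at 0.404 and 1.48 CPM per kilobase, and for HIST3H2A and HIST3H2BB, 229 bases apart and both listed at 0.

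The sequences that set these genes apart are shown for the genes with the most reads and for the kinds of stem-loop found. Among 28 histone genes that matched an annotated GENCODE transcript by identifier, 27 carried a stem-loop, defined as an arm of 6 bases that starts with GG, a loop of 4 bases that reads T, C or T, T and any base, and an arm that pairs with the first (G paired with T allowed). In 26 of them a transcript ended within 25 bases of it. Across all annotated genes 1.02% held such a sequence in a transcript, and across all annotated transcripts 0.619% did. Capitals mark the stem-loop, with 4 bases at each side, written as DNA from 5′ to 3′:
HIST1H2AC: caaaGGCTCTTTTCAGAGCCcccc
HIST1H2BK: caaaGGCTCTTTTAAGAGCCactt
HIST1H1C: aaaaGGCTCTTTTCAGAGCCacca
HIST2H4A: caaaGGCCCTTTTTAGGGCCgacc
HIST1H4H: caaaGGCCCTTTTCAGGGCCgccc
HIST2H2BD: caaaGGCTCTTTTCAGGGCCactt
HIST1H3E: caaaGGCTCTTCTCAGAGCCaacc
All 7 H4 genes opened the stem with GGCCCT, whereas the 20 genes of the other classes opened it with GGCTCT. The form of HIST1H2AC was shared by 12 genes, that of HIST1H2BK by 5, that of HIST1H4H by 4, that of HIST2H4A by 3 and that of HIST2H2BD by 2, while HIST1H3E had its own. The stem-loop did not separate genes by level, since HIST1H2AC at 22.2 CPM and HIST1H2AE, listed at 0, carried the same 16 bases.

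The annotation gave several of these genes a second kind of transcript. Among the 11 matched genes that averaged 1 CPM or more, 8 had a transcript that did not end at the stem-loop and held AATAAA, the usual poly(A) signal, in its last 50 bases (this strand only). The corresponding counts were 3 of 10 for the genes above 0 with a mean under 1 CPM and 2 of 7 for those listed at 0. For HIST1H2AC the annotated transcripts ranged from 519 bases to 1668 bases, the longest running 1128 bases past the stem-loop. HIST2H2BE had a single transcript of 2224 bases that ran 1729 bases past it. In this annotation HIST1H2BK and HIST1H1C, by contrast, had only their short transcripts of 495 and 731 bases, yet came next after HIST1H2AC by CPM. The RefSeq gene model of HIST1H2BK spans 8566 bases of the genome, so the 495 bases may not cover all its exons. HIST1H2BK and HIST1H1C were nevertheless among 8 histone genes listed as having known polyadenylated forms. Those 8 genes summed to 52.8 ± 2.25 CPM in the controls and 55.8 ± 1.02 CPM with CML (SD, n = 4 each). The libraries of the groups overlapped in that sum. HIST1H3E and HIST3H2BB had long forms, which ran 1862 and 4551 bases past the stem-loop, and were listed at 0. Reads of a gene cannot be assigned to the short or the long form from these values. The study's supplement names a stranded kit for mRNA in its general part on tumors, xenografts and cultured cells. The main methods list the CML cultures under that same heading and refer to the supplement for details. The part on CML names no kit, so selection of polyadenylated RNA is implied but not stated for these libraries. Of 19 listed RNAs without a poly(A) tail, 5 were in the table, and they summed to 11.5 ± 1.24 CPM in the controls and 12.5 ± 2.70 CPM with CML (SD, n = 4 each), with overlapping libraries and none past the threshold or at an unadjusted p under 0.05 in limma. RN7SK and RN7SL2, 2 abundant RNAs of this kind, were at 3.83 and 2.91 CPM. The part of RNA selection in the histone levels was not tested.

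Promoters were searched for 3 short motifs that are known from histone genes. In RefSeq windows of 250 bases before to 50 bases after the start (GRCh38.p14), 28 histone genes had a window, and motifs were sought on both strands. The octamer ATTTGCAT, bound by POU2F1, lay in 7 of 10 H2B and 3 of 7 H2A windows and in none of the 7 H4 windows, against 1.80% of all 27305 promoters. CCAAT lay in all 10 H2B and all 7 H2A windows but in 1 of 7 H4 windows, against 35.7% of all promoters. TATAAA lay in 16 of the 28 windows, against 3264 of the 27305. The 245 bases between HIST1H2BC and HIST1H2AC, chr6:26123927-26124171 of GRCh38.p14 on the plus strand, are shown because HIST1H2AC was the only histone gene past the threshold. Capitals mark 1 octamer (read on the other strand), 3 CCAAT motifs (on either strand) and 1 TATAAA:
HIST1H2AC: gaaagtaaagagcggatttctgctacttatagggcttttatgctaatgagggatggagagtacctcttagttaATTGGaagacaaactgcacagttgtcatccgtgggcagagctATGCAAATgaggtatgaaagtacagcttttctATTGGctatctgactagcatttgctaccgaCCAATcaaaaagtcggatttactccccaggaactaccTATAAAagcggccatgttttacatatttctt
A match is a stretch of letters and not a measured binding site.

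HIST1H2AC, which encodes an H2A protein, had the highest CPM of the histone genes and was the only one past the threshold, with a higher level with CML. Its level was 20.5, 20.6, 22.0 and 20.9 CPM in control 1 to 4 and 23.1, 24.1, 22.8 and 23.9 CPM in CML 1 to 4. Every CML library lay above every control library. The means were 20.96 ± 0.684 CPM and 23.5 ± 0.618 CPM (SD, n = 4 each), a ratio of 1.12, and the log2 fold change of log2(CPM + 1) was 0.16 with a standard error of 0.032 (limma, adjusted p = 0.262 over all genes). An exact two-sided permutation test of the 8 values gave p = 0.0286, the smallest that its 70 labellings allow. The gene received about 378 estimated reads a library, whole numbers in all 8, for which counting alone gives a coefficient of variation of 5.14%. The observed coefficients, 3.26% in the controls and 2.63% with CML, were both below it. It occupies chr6:26124172-26124690 (GRCh38.p14), 519 bases in the RefSeq model, and an unnamed annotated gene overlaps its exon on the same strand. The call depended on the settings. The adjusted p ran from 0.193 to 0.568 over 17 alternatives and stayed under 0.3 in 7; with 1 library left out it stayed under 0.3 only without control 3 or without control 4, and ran up to 0.518 (without CML 2).

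At the adjusted p of 0.3 that the study used for this experiment, 1 of the 33 histone genes passed, against 158 of 17649 genes (0.895%), and it was higher with CML, as were 0.674% of all genes. No gene of any kind passed at 0.05 in limma. An unadjusted p under 0.05 was reached by 2 histone genes, HIST1H2AC and HIST2H2BD, against 1352 genes in all (7.66%), and the groups did not overlap for 1 histone gene, against 3.78%. The median log2 fold change was 0 over the 33 genes, 0.018 over the 25 above 0 and -0.018 over the 12 that averaged 1 CPM or more, beside 0.0066 over all genes. Among those 12 genes, 6 had a positive and 6 a negative difference.

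The next 3 genes by level did not pass the test. HIST1H2BK, an H2B gene, was at 11.4, 9.57, 9.19 and 7.52 CPM in the controls and at 9.26, 8.01, 9.83 and 8.46 CPM with CML, so that the highest and the lowest library were both controls (log2 fold change -0.067, SE 0.12, adjusted p = 0.987 in limma). HIST1H1C, which encodes the linker histone H1.2, was at 9.36, 7.57, 7.14 and 7.47 CPM in the controls and at 8.05, 8.99, 7.50 and 7.65 CPM with CML. Control 1 was the highest library for both genes, and leaving it out turned the sign of HIST1H2BK to 0.022. HIST1H2BD was at 7.75, 6.98, 6.41 and 7.92 CPM in the controls and at 7.70, 8.51, 7.50 and 8.90 CPM with CML, where the groups overlapped although the means were 7.26 ± 0.703 and 8.15 ± 0.663 CPM (log2 fold change 0.15, SE 0.083, adjusted p = 0.774).

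**Figure D2:**
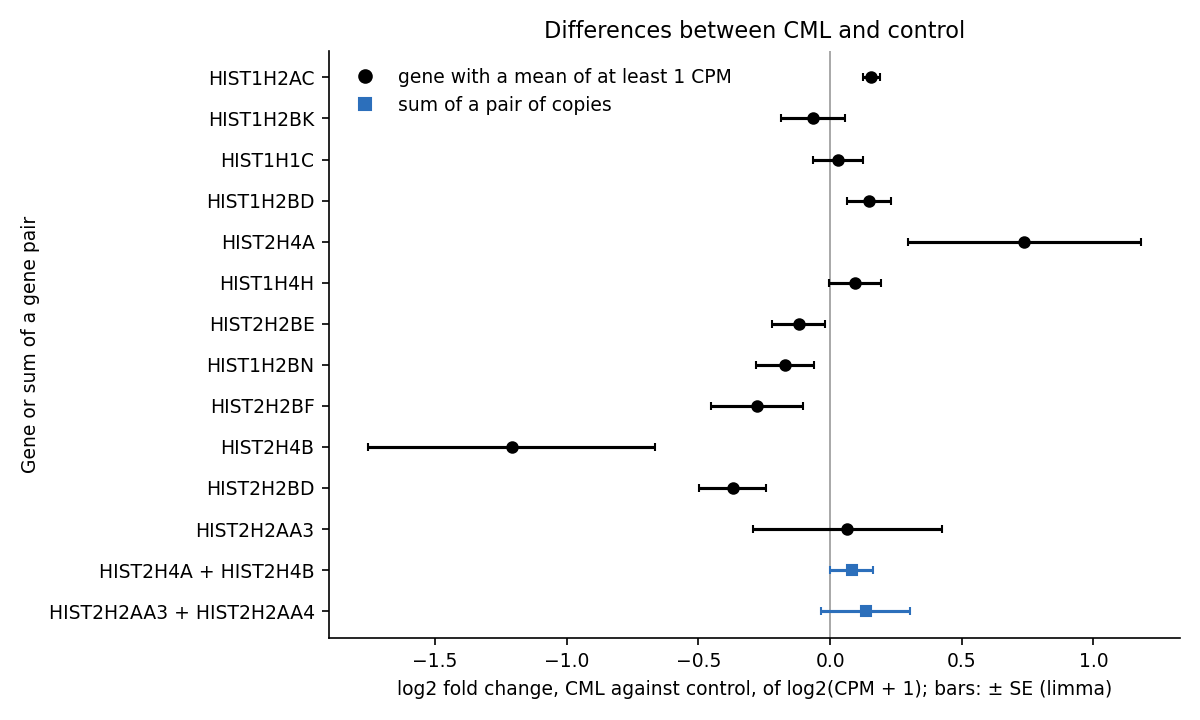
Log2 fold change of log2(CPM + 1), CML against control, with its standard error from limma (x axis), for the 12 histone genes that averaged 1 CPM or more (circles) and for the sums of 2 pairs of copies (squares). HIST1H2AC has a small difference with a short error bar, while HIST2H4A and HIST2H4B lie far apart in opposite directions and their sum lies near 0, at 0.08.

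HIST2H4A and HIST2H4B encode the same H4 protein, and reads of their short transcripts cannot tell them apart. Their longest annotated transcripts, of 1549 and 1696 bases, were not compared. Their promoter windows were identical at 300 of 300 bases and their shortest annotated transcripts at 396 of 396 bases, with the starts 28502 bases apart on chromosome 1 (GRCh38.p14). The 250 bases before either start, here chr1:149832407-149832656 of GRCh38.p14 on the plus strand, are shown once because both copies carry them, and hold none of the 3 motifs:
HIST2H4A: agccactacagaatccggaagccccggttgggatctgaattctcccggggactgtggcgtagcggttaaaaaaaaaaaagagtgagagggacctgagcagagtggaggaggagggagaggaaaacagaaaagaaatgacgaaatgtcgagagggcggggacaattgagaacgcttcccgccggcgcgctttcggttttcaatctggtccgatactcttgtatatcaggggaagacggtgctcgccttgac
HIST2H4A was listed at 7.10, 6.06, 1.05 and 5.76 CPM in the controls and at 9.60, 6.13, 7.40 and 8.65 CPM with CML. HIST2H4B was listed at 1.43, 1.51, 7.72 and 1.88 CPM in the controls and at 0.24, 2.38, 0.28 and 0 CPM with CML. The copies moved against each other, most clearly in control 3, where HIST2H4B took 88.0% of the pair's CPM, compared with 0% to 28.0% in the CML libraries and 16.8% to 24.6% in the other controls. Their sum was far steadier, at 8.53, 7.57, 8.77 and 7.64 CPM in the controls and 9.84, 8.51, 7.68 and 8.65 CPM with CML. The means of the sum were 8.12 ± 0.613 and 8.67 ± 0.891 CPM, and it did not pass the test (log2 fold change 0.08, SE 0.083, limma adjusted p = 0.909). The separate log2 fold changes, 0.74 with an SE of 0.44 and -1.21 with an SE of 0.55, did not pass either (limma adjusted p = 0.801 and 0.684).

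HIST2H2AA3 and HIST2H2AA4, a pair of H2A copies, behaved alike. Their promoter windows were identical at 299 of 299 bases when set off by 1 base. HIST2H2AA4 was listed at 0 in control 1, control 4, CML 1 and CML 2 and between 1.19 and 1.54 CPM in the other 4 libraries, while HIST2H2AA3 ran from 0.385 to 2.84 CPM. The sum of both was 2.07 ± 0.629 CPM in the controls and 2.33 ± 0.375 CPM with CML (log2 fold change 0.14, SE 0.17, limma adjusted p = 0.946). Estimated reads of HIST2H4A, HIST2H4B, HIST2H2BF and HIST2H2BD were fractions rather than whole numbers in 6 to 8 of the 8 libraries, and so were those of HIST1H2BK, in all 8.

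**Figure D3:**
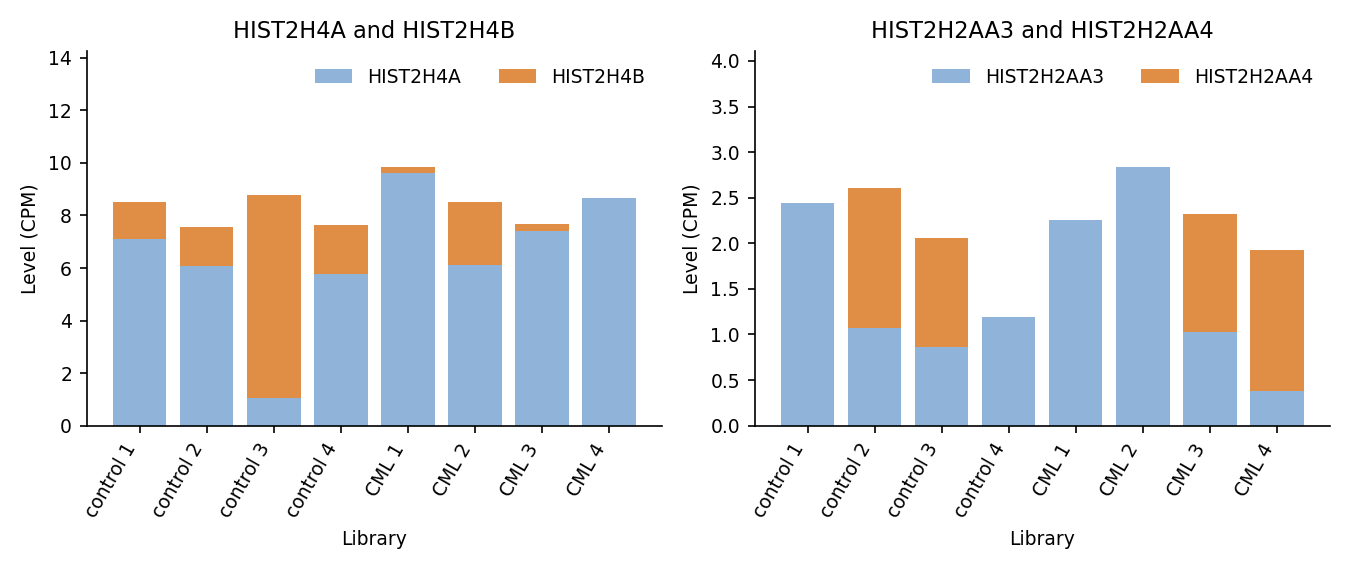
Levels in CPM (y axis) in each of the 8 libraries for HIST2H4A and HIST2H4B (left) and for HIST2H2AA3 and HIST2H2AA4 (right), stacked so that the bar height is the sum of the pair. In control 3 most of the HIST2H4 bar belongs to HIST2H4B, although its height, 8.77 CPM, lies among the others.

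The other 5 genes that averaged 1 CPM or more lay between 1.77 and 3.30 CPM, and none passed the threshold. HIST2H2BD had the second smallest p of the histone genes. It was at 2.38, 1.44, 2.13 and 2.58 CPM in the controls and at 1.22, 1.36, 1.34 and 1.69 CPM with CML, which left control 2 inside the CML range (log2 fold change -0.37, SE 0.13, limma adjusted p = 0.542). Current annotation treats it as a pseudogene, H2BC19P, as it does HIST2H2BA and HIST2H2BB, and another annotated gene overlaps it on the same strand. HIST1H4H was at 3.15 ± 0.241 CPM in the controls and 3.45 ± 0.552 CPM with CML, HIST2H2BE at 3.09 ± 0.554 and 2.74 ± 0.148 CPM, HIST1H2BN at 2.64 ± 0.154 and 2.26 ± 0.491 CPM, and HIST2H2BF at 2.70 ± 0.832 and 2.02 ± 0.412 CPM (SD, n = 4 each). At 40.1 to 56.4 estimated reads a library, counting alone gives these 4 genes a coefficient of variation of 13.3% to 15.8%. HIST1H4H and HIST2H2BF overlap exons of genes on the opposite strand. A stranded kit is implied but not stated for these libraries, and whether strand was used in the counting is not given in the sources used here.

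Below 1 CPM, HIST1H2AG, HIST1H2BC, HIST1H2BE, HIST2H2BB, HIST1H2BJ and HIST2H2BA had means between 0.418 and 0.732 CPM, and the adjusted p in limma lay between 0.910 and 1 for all 6. HIST1H4J, HIST4H4, HIST1H2AI, HIST1H4I and HIST1H2BG, which complete the list and are named here after their values were seen, had means of 0.177 CPM or less. HIST1H2BG was above 0 in 1 library only, CML 4. At 0.125 to 3.02 estimated reads a library, no difference in these 5 genes was detectable at this depth.

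The summed histone level overlapped between the groups only through control 1. It was 73.4 ± 4.00 CPM in the controls, from 70.4 to 79.3 CPM, and 75.5 ± 1.28 CPM with CML, from 74.3 to 77.3 CPM (SD, n = 4 each). Without HIST1H2AC the sums were 52.4 ± 4.34 and 52.0 ± 0.961 CPM. Control 1 was the highest library in both sums. Without it the other controls reached at most 71.97 CPM in total, below every CML library, and the mean difference was 4.04 CPM in place of 2.08 CPM. The difference without HIST1H2AC turned from -0.43 to 1.71 CPM, still with overlap. In the full sum, the groups overlapped when any other single library was left out. Mean differences then ran from 1.08 CPM (without control 4) to 2.47 CPM (without CML 3). Without HIST1H2AC they stayed below 0, from -1.39 CPM (without control 4) to -0.092 CPM (without CML 4). The rule used below for libraries far from the others did not flag control 1 in the full sum. By class, the H2A sum was 23.8 ± 0.904 CPM in the controls and 26.6 ± 0.926 CPM with CML, with no overlap, and HIST1H2AC made up most of it. The H2B sum was 29.7 ± 2.56 and 27.9 ± 1.25 CPM, the H4 sum 11.6 ± 0.825 and 12.5 ± 1.34 CPM and the H3 sum 0.384 ± 0.063 and 0.422 ± 0.134 CPM, all with overlap. HIST1H2AC supplied 25.8% to 30.5% of all histone CPM in the controls and 30.6% to 31.9% with CML.

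**Figure D4:**
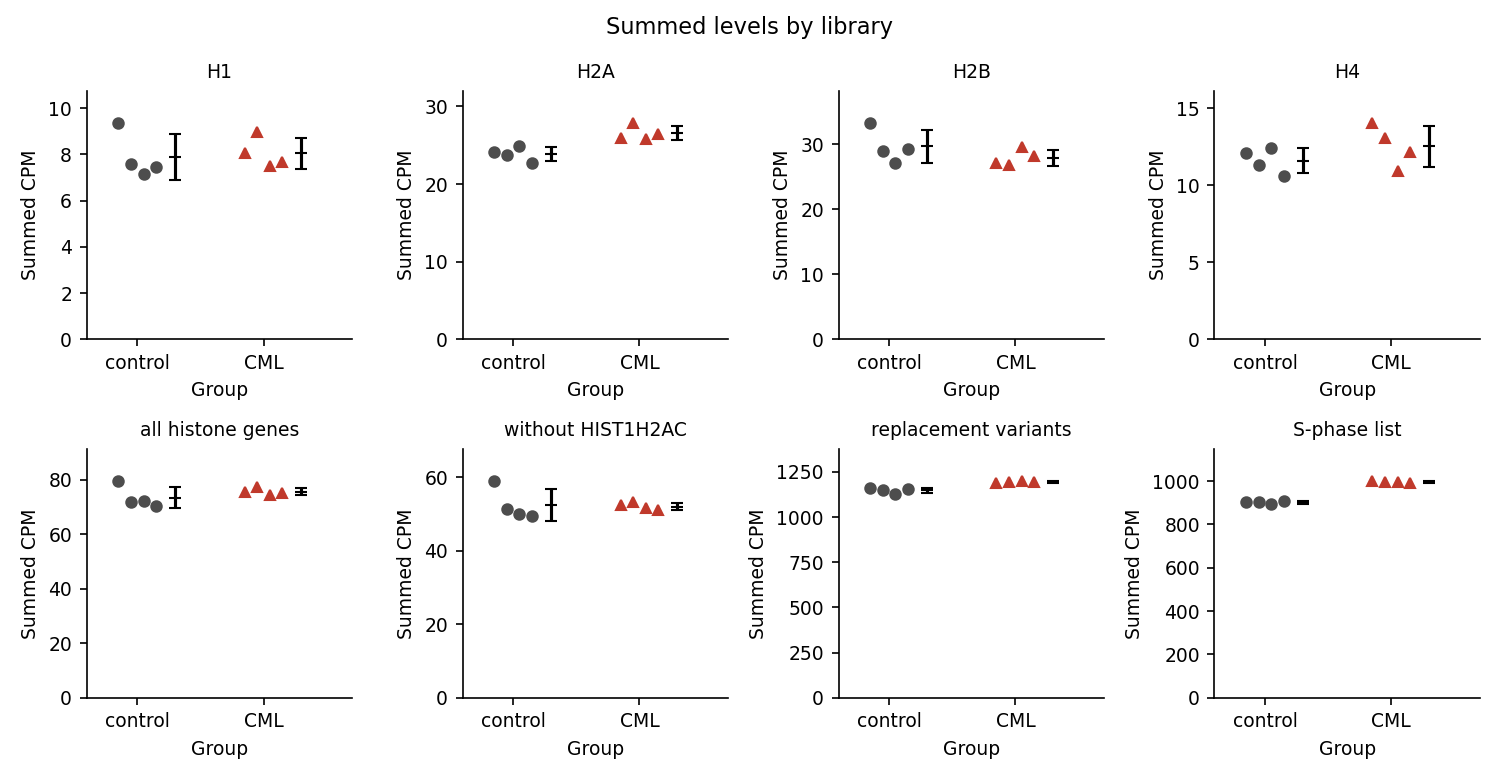
Summed CPM (y axis, from 0) by library in the control and CML groups for the H1, H2A, H2B and H4 genes, all 33 histone genes, all but HIST1H2AC, the replacement variants and the S-phase list; circles and triangles are libraries and bars show the mean ± SD (n = 4). The groups separate for H2A, the replacement variants and the S-phase list and overlap in the other panels, for all 33 genes through control 1 alone.

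The listed replacement variants took more reads in these libraries than the cluster genes did. Cluster mRNAs normally carry no poly(A) tail, and the part of RNA selection in this gap was not tested. The sum of the replacement variants was 1149 ± 14.2 CPM in the controls and 1194 ± 4.48 CPM with CML. It ran from 1129 to 1161 and from 1187 to 1197 CPM, so that the groups did not overlap. Of 12 listed genes, 11 were in the table and none passed the threshold, with 3 at an unadjusted p under 0.05 in limma and 8 with a positive difference (median log2 fold change 0.057); over all genes 7.66% had such a p and 9445 of 17649 had a positive difference. H2AFZ, which encodes H2A.Z, was at 194 ± 3.66 and 204 ± 3.32 CPM (log2 fold change 0.07, SE 0.018, limma adjusted p = 0.390), with no overlap. H3F3B, 1 of the H3.3 genes, was at 323 ± 4.89 and 336 ± 4.38 CPM, also with no overlap (adjusted p = 0.400 in limma), and passed when control 4 was left out (adjusted p = 0.287). Its log2 fold change, 0.058, came to 0.027 after quantile normalization, and that of H2AFZ to 0.043. H2AFY, which encodes macroH2A1, was at 135 ± 2.41 and 141 ± 3.47 CPM with overlapping libraries.

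Levels of different genes were compared per length, as mean CPM per kilobase of all annotated exons. The part of RNA selection in these levels was not tested. H1F0, the H1 variant of non-dividing cells, was at 109, H2AFZ at 87.8, H3F3B at 53.7 and H3F3A at 31.9 CPM per kilobase. The highest cluster genes were HIST1H2BK at 18.5, HIST1H2AC at 13.3, HIST1H1C at 10.9 and HIST1H2BD at 8.95 CPM per kilobase. The order among the cluster genes depended on the length used: over its shortest transcript, HIST1H2AC came to 42.8 CPM per kilobase and HIST2H4A to 16.3. For HIST1H2BK both lengths were 495 bases, although its RefSeq gene model spans 8566 bases. H2AFX at 8.04 and CENPA, the centromeric H3, at 4.84 CPM per kilobase were within the range of the cluster genes, and H2AFY2 was listed at 0.

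**Figure D5:**
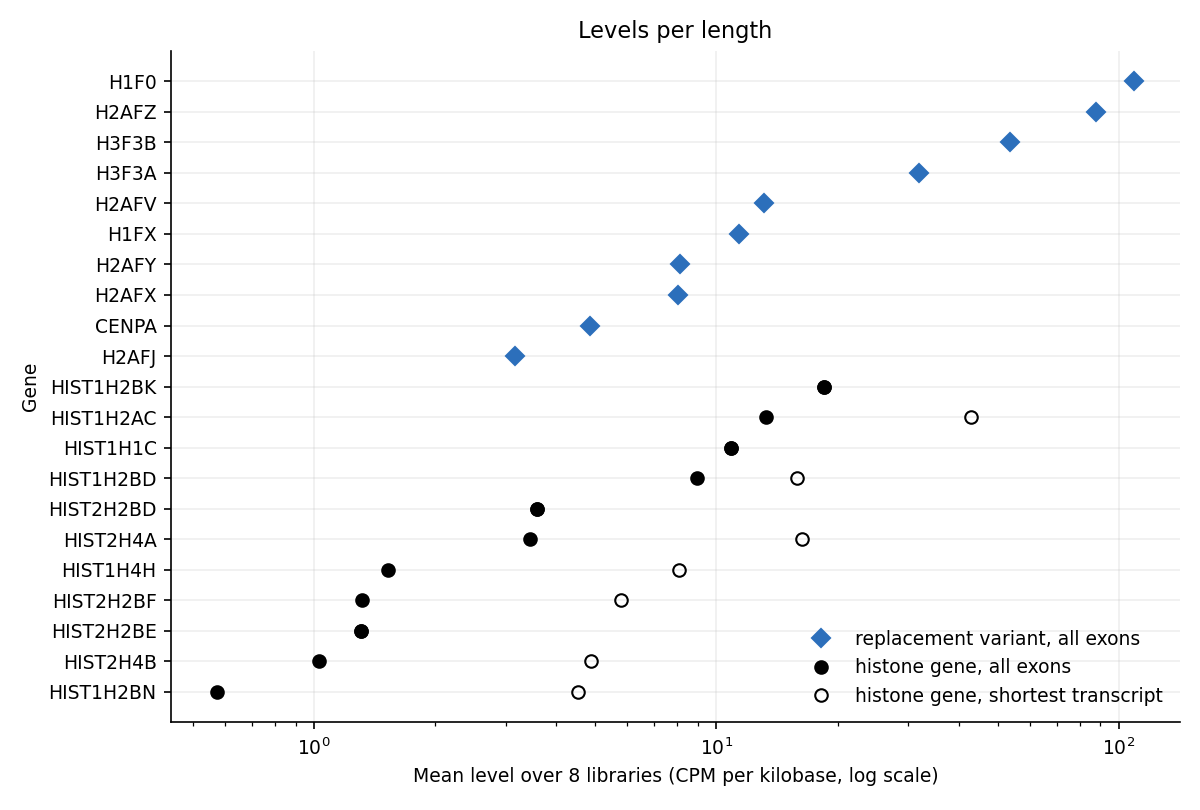
Mean level over the 8 libraries in CPM per kilobase (x axis, log scale) for 10 replacement variants (diamonds, all exons) and 11 histone genes that averaged 1 CPM or more (filled circles, all exons; open circles, shortest annotated transcript). H1F0, H2AFZ and H3F3B lie above every histone gene at either length, and the part of RNA selection was not tested.

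The factors that make and process histone mRNA were all expressed and none passed the threshold. All 26 listed genes were in the table, 17 with a positive difference, against 53.5% of all genes. None had an unadjusted p under 0.05 in limma, and the median log2 fold change was 0.0079. SLBP, which binds the stem-loop shown above, was at 50.9 ± 3.00 CPM in the controls; NPAT, the coactivator of histone transcription, was at 36.6 ± 3.37 CPM. SLBP and NPAT had log2 fold changes of -0.045 and 0.093 (limma adjusted p = 0.930 and 0.897); these 2 were named for their role and not by the rule for named genes. SRRT, a partner of the cap-binding complex, had the smallest p of the list (log2 fold change -0.078, SE 0.033, limma adjusted p = 0.652). CCNE1 and CCNE2, the cyclins E that activate NPAT through CDK2, had log2 fold changes of 0.10 and 0.13, and neither passed.

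Among 28 histone chaperones and importers, all in the table, 1 passed, against 0.895% of all genes. UBN2, a subunit of the HIRA complex that deposits H3.3, fell with CML from 37.1 ± 1.40 to 33.3 ± 0.685 CPM, with no overlap (log2 fold change -0.15, SE 0.030, limma adjusted p = 0.242). Its direction held in all 16 alternatives, but it passed in only 7 of them, and with 1 library left out only without control 1 or without control 4. ASF1B, which carries new H3 and H4 to the replication fork, was at 17.9 ± 1.35 and 21.3 ± 0.575 CPM (log2 fold change 0.24, SE 0.053, adjusted p = 0.301 in limma). HJURP, the chaperone of CENPA, was at 29.4 ± 1.80 and 34.4 ± 1.56 CPM (log2 fold change 0.22, SE 0.050, adjusted p = 0.315). Both narrowly missed the threshold, with every CML library above every control library. The abundant chaperones NPM1 and NAP1L1 had log2 fold changes of -0.0012 and 0.012. With 1 library left out, between 0 and 4 genes of the list passed, 0 without control 2 or without any single CML library and 4 without control 4.

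The S-phase list holds genes of DNA synthesis, a process with which histone transcription is coupled. All 40 genes were in the table, 38 with a positive difference, against 53.5% of all genes. The threshold was passed by 6, all higher with CML, against 0.674% of all genes. The list was chosen with earlier results of these data known, so these counts are a description and not a test. The median log2 fold change of the list was 0.16. CDC45, part of the replicative helicase, rose from 7.50 ± 0.334 to 10.4 ± 0.417 CPM (log2 fold change 0.43, SE 0.049, limma adjusted p = 0.0856). CCNA2, cyclin A2, rose from 32.2 ± 1.94 to 41.6 ± 1.40 CPM, and TYMS, thymidylate synthase, from 24.7 ± 1.63 to 31.7 ± 0.811 CPM. RRM2 and RRM1, the subunits of ribonucleotide reductase, and UHRF1, which maintains DNA methylation behind the fork, rose by 0.39, 0.21 and 0.31 on the log2 scale. The groups did not overlap for any of the 6 genes, which had been selected by their p in the same libraries. The summed list was 902 ± 6.55 CPM in the controls and 996 ± 3.54 CPM with CML, from 893 to 909 and from 991 to 998 CPM. With 1 library left out, 2 to 8 genes of the list passed, fewest without control 2, CML 2 or CML 3. HIST1H2AC had a log2 fold change of 0.16 (SE 0.032), equal to the median of that list. HIST1H2BD was close to it at 0.15, with a larger SE of 0.083, and did not pass. Of the 12 histone genes that averaged 1 CPM or more, 6 had a positive and 6 a negative difference, and only HIST1H2AC passed. The difference between the lists was not tested. In bulk RNA, a larger share of cells in S phase and more RNA per cell cannot be told apart.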

How the data were processed

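RNA-Seq libraries of 4 control and 4 CML cultures were used, and groups and replicate numbers were taken from the sample titles. The authors deposited normalized CPM values with Ensembl identifiers and symbols. The submitters' processing notes name edgeR and hg38. The study's methods name a stranded mRNA kit in a general part, whose heading in the main text covers the CML cultures, but none in the part on CML. That kit is thus implied but not stated for these libraries. The aligner, counting tool and annotation are not stated for this experiment itself. The instrument is given as NextSeq by some labels and as HiSeq by others. Columns summed to 986730 to 1014124. The step between values gave reads per gene, of which 84.6% to 85.6% were whole within 0.01, so counts were estimates and no count test was run. Precision at low levels is limited by counting error.

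Rows with the same symbol were averaged (17681 rows, 32 symbols with more than 1 row, 17649 genes). On log2(CPM + 1), limma 3.58.1 (R 4.3.3) was fitted with a variance trend, p-values were adjusted by the method of Benjamini and Hochberg across every gene of the table, the threshold was 0.3 as in the study, and an exact permutation test was added for single genes. Tested on simulated data, the fit recovered the folds put in, but more of its calls at 0.3 were false than that threshold allows. Fold changes understate low genes because of the pseudocount of 1. Replicate numbers were not taken to pair the libraries, although the values did not settle this. Pseudogene symbols were dropped by name only, and none was removed in this way.

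Lengths and transcripts came from GENCODE v44 lifted to GRCh37, matched by identifier (28 of 33 histone genes), and promoters and coordinates from RefSeq on GRCh38.p14 (31 of 33). The named genes were the 20 histone genes with the highest mean CPM, every one with an adjusted p under 0.3 and the 5 with the smallest p, and, for each list, every gene under 0.3, the 3 with the smallest p and the 2 with the highest mean. The members and lists were chosen with earlier results of these data known. Each library was left out in turn, and the fit was repeated with a replicate block, without the trend, after median centring or quantile normalization, without averaging of rows, for genes averaging 1 CPM or more and with 0.1 as the pseudocount, and, chosen after seeing the data, near copies summed and GC content and length removed. Plots were made in Python 3.11.15 (matplotlib 3.10.9).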

Additional observations from a re-analysis of the deposited data

Results flagged for a closer look

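In 7 of the 106 groups of 4 libraries examined, 1 library lay far from the other 3 relative to the range of the group, where chance alone gives about 5.3. HIST2H4B was at 7.717 CPM in control 3, against 1.43 to 1.88 CPM in the other controls, and at 2.381 CPM in CML 2, against 0 to 0.278 CPM in the other CML libraries; its sum with HIST2H4A was not set apart in either group. HIST2H2BB was at 0.1253 CPM in control 2, against 0.536 to 0.618 CPM in the other controls. HIST1H3H was at 0.477 CPM in control 1, against 0.342 to 0.363 CPM, a difference of 2 reads or so at this depth. NAP1L1 was highest in the library numbered 4 of both groups, at 1271 CPM in control 4 against 1181 to 1184 CPM and at 1262 CPM in CML 4 against 1194 to 1203 CPM. RN7SK was at 3.077 CPM in control 4, against 3.82 to 3.93 CPM.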

How the results depend on the processing

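The direction of HIST1H2AC held in all 17 alternatives, with log2 fold changes of 0.13 to 0.18, but it passed 0.3 in only 7 of them. It did not pass with a minimum mean of 1 CPM (0.16, adjusted p = 0.568), median centring (0.14, 0.545) or GC content and length removed (0.13, 0.377). Histone genes past the threshold numbered 0 with a minimum mean of 1 CPM and 0 with median centring; with GC content and length removed the 1 was HIST2H4B (-1.22, adjusted p = 0.137), not HIST1H2AC. Genes past it in all numbered 73 with median centring and 742 with GC content and length removed, S-phase genes 3 with median centring, and chaperones 2 with a minimum mean of 1 CPM (ASF1B and HJURP, while UBN2 went to an adjusted p of 0.461), 0 with median centring (UBN2 0.324) and 2 with no variance trend. Scaling moved the all-gene median by less than 0.1, yet quantile normalization took the log2 fold changes of H3F3B from 0.058 to 0.027, H2AFZ from 0.07 to 0.043 and H1F0 from 0.034 to 0.0079. Median centring moved every gene by the same -0.020 by construction, which turned HIST2H2AA4 (-0.0020), YBX1 (-0.015) and NAP1L1 (-0.0081). Signs also turned with GC content and length removed for YBX1 (-0.00041) and NAP1L1 (-0.0067); the cause was not tested.

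With the replicate number as a block, 0 histone genes and 3 S-phase genes passed, and HIST1H2AC kept its log2 fold change of 0.16 (adjusted p = 0.396). The 1 chaperone that passed was then HJURP (adjusted p = 0.263) and not UBN2 (0.340). Deviations of same-numbered libraries correlated at 0.199, -0.030, -0.065 and 0.334 for numbers 1 to 4. The mean over libraries of unlike number was -0.036, and 2 of 4 control libraries correlated best with their own number. These values did not settle whether the numbers pair libraries, and the main fit used no pairing.

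With 1 library left out, the number of genes past 0.3 ran from 20 (without CML 2) to 690 (without control 4), histone genes from 0 to 1, replacement variants from 0 to 2, chaperones from 0 to 4 (without control 3 ASF1B and not UBN2, at 0.390) and S-phase genes from 2 to 8, and the log2 fold change of HIST1H2AC from 0.14 to 0.18. Log2 fold changes that crossed 0 ran from -0.16 to 0.022 for HIST1H2BK, -0.019 to 0.11 for HIST1H1C, -0.15 to 0.34 for HIST2H2AA3, -0.11 to 0.084 for HIST1H2AG, -0.22 to 0.26 for HIST2H2AA4, -0.075 to 0.15 for HIST1H2BC, -0.10 to 0.051 for HIST1H2BE, -0.15 to 0.060 for HIST2H2BB, -0.18 to 0.018 for HIST1H2BJ, -0.0029 to 0.10 for HIST1H3H, -0.0075 to 0.077 for SYMPK, -0.019 to 0.024 for NPM1, -0.0072 to 0.038 for NAP1L1 and -0.072 to 0.10 for RN7SL2. None of these genes had passed. Depth limits genes under 1 CPM, since 1 read was worth 0.0535 to 0.0622 CPM.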
